A study of Bos taurus with 18 samples.

Results

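Bovine satellite cells that had grown without serum were moved from serum-free growth medium (SFGM) to a serum-free base medium (SFB) for 72 h, and their poly(A) RNA was set against that of the starting cells. The tested libraries were SFB replicates A, B and C, taken at 72 h, and they were compared with SFGM replicates A, B and C, taken at 0 h. These 6 libraries were chosen by their medium label from 18 in all. Of 27607 gene identifiers in the table, 14637 passed the expression filter and were tested. All cells came from Belgian Blue cattle, and both groups had been cultured on collagen without serum. Other SFGM cells were kept for 72 h in a serum-free medium for differentiation, made with DMEM/F-12 (SFDM) or with DMEM (DMEM). A further pair of groups was made with fetal bovine serum (FBS), with DM (2% FBS, 72 h) made from GM (20% FBS, 0 h). Each group had 3 replicates, called biological in the study's design, and the labels do not say what the letters A to C stand for or whether they mark separate animals. There was no SFGM culture at 72 h and no SFB culture at 0 h, so the change of medium and the time in culture cannot be told apart.

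Satellite cells are the resident progenitors of skeletal muscle. In culture they divide while growth factors are plentiful, and when these are withdrawn they leave the cell cycle, switch on muscle genes and fuse into multinucleated myotubes. Lowering serum is the usual way to start that programme, and cultures without serum need another trigger. The deposited table carries Ensembl identifiers without gene names, and the name table used here paired none of them with a symbol. Muscle, cell cycle and other marker genes were therefore not analysed here, the cell type was not checked against its markers, and genes are described in groups set by their behaviour in other media. In bulk RNA, fewer cells of a type and less RNA per cell cannot be told apart.

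Counts on genes ran from 23428680 to 25572762 per SFB library and from 24185902 to 28589018 per SFGM library. CPM values are counts scaled to library totals adjusted by TMM, which sets libraries level on the bulk of their genes. Library distances, as root mean square differences in log2 CPM, were 0.932 to 1.03 between SFB and SFGM libraries. They were 0.301 to 0.467 among SFB replicates and 0.268 to 0.293 among SFGM replicates. SFB replicate C stood apart from the other SFB libraries, at 0.465 from A and 0.467 from B, while A and B were 0.301 apart. Its mean distance to SFGM was 0.936, against 1.01 for A and 0.991 for B. SFB libraries lay nearer to SFDM (0.619 to 0.744) and to DMEM (0.719 to 0.824) than to SFGM, and SFDM and DMEM lay farther from SFGM than SFB did (1.20 to 1.24 and 1.18 to 1.22).

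After 72 h in SFB, 4171 genes were higher and 4359 lower than in SFGM, together 8530 or 58.3% of the 14637 tested (28.5% higher and 29.8% lower). The test was edgeR's quasi-likelihood test with Benjamini-Hochberg adjustment over all genes tested, at an adjusted p of 0.05. Changes of any size ran in both directions in nearly equal numbers, while changes of 4-fold or more were mostly rises under each of the 3 scalings tried. At least 2-fold changes were 1613 rises and 1116 falls, at least 4-fold changes 644 rises and 268 falls, and at least 8-fold changes 277 rises and 85 falls. Of the genes past 8-fold, 28 that rose and 9 that fell had no count in any library of the lower group, and the size of their fitted change depends on the prior count. With those genes set to the bound given by a floor of 3 counts over the group, 257 rises and 83 falls remained at 8-fold or more. The median change was 0.75 on the log2 scale among genes that rose and -0.65 among genes that fell. With TMM scaling (which sets libraries level on the bulk of their genes) the median of all genes was -0.02 and rises made up 48.9% of the calls. With library totals alone these were -0.14 and 38.3%. Totals alone also gave 1412 rises and 1423 falls at 2-fold or more, which removes the excess of rises there, and 582 rises and 310 falls at 4-fold or more. Leaving out SFB replicate C gave 4263 rises and 4635 falls, with 659 and 345 at 4-fold or more.

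**Figure D1:**
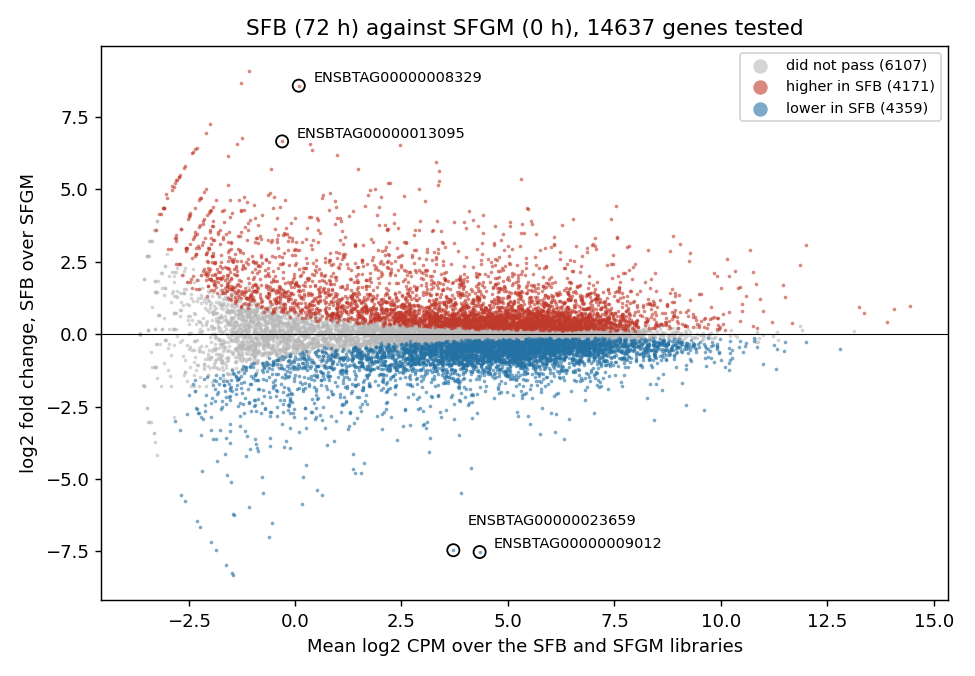
Each point is 1 of the 14637 genes tested. The x axis gives its mean log2 CPM over the 3 SFB and 3 SFGM libraries and the y axis its fitted log2 fold change, SFB over SFGM. Red points are the 4171 genes that rose in SFB, blue points the 4359 that fell and grey points those that did not pass, with the 4 named identifiers circled; 277 points called lie at 3 or above on the y axis and 85 at -3 or below.

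With TMM scaling, changes past 2-fold were more often rises than falls in each class of mean CPM. The excess was widest among the genes with the most counts, where the estimates are most precise. The means that set the classes include the SFB and other 72 h libraries. This can favour rises in the higher classes, so these counts are a description. CPM is not corrected for gene length, so these classes sort genes by counting precision and not by expression alone. Among 2052 genes with a mean of at least 100 CPM over all libraries, 730 rose and 719 fell, with 241 rises and 69 falls past 2-fold. The median standard error in that class was 0.0808 on the log2 scale. Among 1804 genes with a mean below 1 CPM the median standard error was 0.462, and 371 rose and 254 fell, with 349 and 231 past 2-fold. In the class of 10 to 100 CPM (7217 genes) there were 2053 rises and 2433 falls, with 507 and 405 past 2-fold. Between 1 and 10 CPM (3564 genes) there were 1017 rises and 953 falls, with 516 and 411 past 2-fold.

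**Figure D2:**
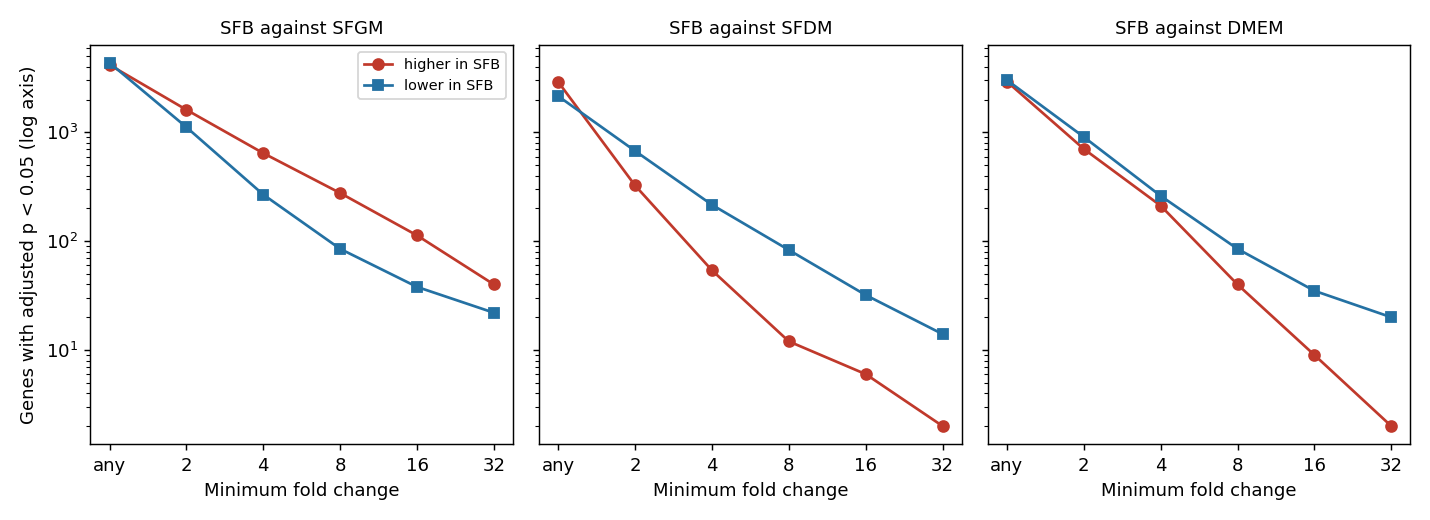
The y axis counts genes with an adjusted p under 0.05 (log axis) and the x axis gives the minimum fold change, for SFB against SFGM, SFDM and DMEM. Red circles are genes higher in SFB and blue squares genes lower in SFB. At 4-fold, 644 genes are higher and 268 lower in SFB than in SFGM, while against SFDM (54 and 216) and DMEM (212 and 261) the lower ones are more numerous.

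Counts in SFB were concentrated on fewer genes than in SFGM. The 10 identifiers with most counts in each library took 13.1%, 13.2% and 14.7% of the counts in SFB replicates A, B and C, and 9.01%, 8.90% and 9.42% in SFGM replicates A, B and C. Every SFB library was above every SFGM library. The means were 13.7% ± 0.902 in SFB and 9.11% ± 0.272 in SFGM (SD, n = 3 each, exact two-sided permutation p = 0.1, the smallest that 3 against 3 libraries allow). The share of the top 100 was 29.3% ± 0.918 in SFB and 23.5% ± 0.335 in SFGM (exact permutation p = 0.1). Of the 10 identifiers with the highest mean share in SFB, 8 rose against SFGM and 1 fell. They were chosen on their SFB counts, which favours rises. Of the 10 with the highest mean share in SFGM, 5 rose and 3 fell. Over all genes tested 28.5% rose and 29.8% fell. The largest identifier in SFB held 3.07% of the counts in SFB and 1.68% in SFGM. The 10 identifiers chosen in SFB held 12.4% ± 0.302 of the counts in SFDM and 6.603% ± 0.194 in DM. The top 10 of each library's own counts held 13.3% ± 0.377 in SFDM, near the SFB share (exact permutation p = 0.7). In DMEM they held 10.9% ± 0.540 (exact permutation p = 0.1). The top 100 held 30.4% ± 0.519 in SFDM (exact permutation p = 0.2) and 27.0% ± 0.773 in DMEM (exact permutation p = 0.1). Identifiers with at least 1 CPM numbered 12649 ± 27.4 per library in SFB and 12513 ± 36.2 in SFGM (exact permutation p = 0.1).

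Single identifiers are given for the extremes, the 2 with the largest fitted rise and the 2 with the largest fitted fall among those whose libraries did not overlap and whose higher group averaged 5 CPM or more. ENSBTAG00000008329 had 12.5, 13.2 and 7.95 CPM in SFB replicates A, B and C, against 0.0388, 0.0331 and 0 CPM in SFGM replicates A, B and C. SFB replicate C was the lowest of the SFB values, yet far above all SFGM values. Those values rest on 801 counts in SFB and 2 counts in SFGM, a 461-fold difference with a 95% counting interval of 127 to 3814, which covers counting error only (edgeR adjusted p = 1.26e-10). The level in SFB was 5.82-fold lower than in SFDM (65.1 ± 14.3 CPM, edgeR adjusted p = 3.99e-08) and 2.80-fold lower than in DMEM (31.3 ± 3.81 CPM, edgeR adjusted p = 1.1e-05). In DM it stood at 12.7 ± 0.713 CPM, and in GM at 0.0341 ± 0.0590 CPM (SD, n = 3).

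ENSBTAG00000013095 had 5.05, 5.34 and 5.78 CPM in SFB replicates A, B and C, against 0, 0.0331 and 0.112 CPM in SFGM replicates A, B and C. The 3 SFB values lay close together and far above all SFGM values. The SFGM libraries held 4 counts in all, and the fitted log2 fold change was 6.66 ± 0.31 (SE, edgeR adjusted p = 1.48e-11). In the serum-based cultures it stood at 1.25 ± 0.115 CPM in DM and 0.330 ± 0.0856 CPM in GM (SD, n = 3). SFB was lower than both serum-free differentiation media, which held 9.36 ± 0.531 CPM in SFDM and 7.72 ± 0.997 CPM in DMEM (edgeR adjusted p = 0.000662 and 0.012). The DMEM difference did not pass without DMEM replicate B (edgeR adjusted p = 0.0701).

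ENSBTAG00000009012 had 1.13, 1.79 and 1.45 CPM in SFB replicates A, B and C, against 275, 279 and 253 CPM in SFGM replicates A, B and C. It fell by 7.52 ± 0.12 on the log2 scale, a 184-fold fall (SE, edgeR adjusted p = 8.3e-17). All 72 h groups were low, with 0.784 ± 0.0491 CPM in SFDM, 1.90 ± 0.172 CPM in DMEM and 1.18 ± 0.102 CPM in DM. GM held 16.8 ± 1.15 CPM (SD, n = 3).

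ENSBTAG00000023659 had 0.870, 0.584 and 1.49 CPM in SFB replicates A, B and C, against 167, 160 and 197 CPM in SFGM replicates A, B and C. The groups were far apart, and replicate C was the highest library in both. It fell by 7.46 ± 0.33 on the log2 scale, a 176-fold fall (SE, edgeR adjusted p = 9.5e-12). Levels were 0.908 ± 0.359 CPM in SFDM, 1.77 ± 0.708 CPM in DMEM, 3.49 ± 1.06 CPM in DM and 62.2 ± 19.3 CPM in GM (SD, n = 3). The difference between SFB and SFDM did not pass the test (log2 difference 0.17 ± 0.51, SE, edgeR adjusted p = 0.826).

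**Figure D3:**
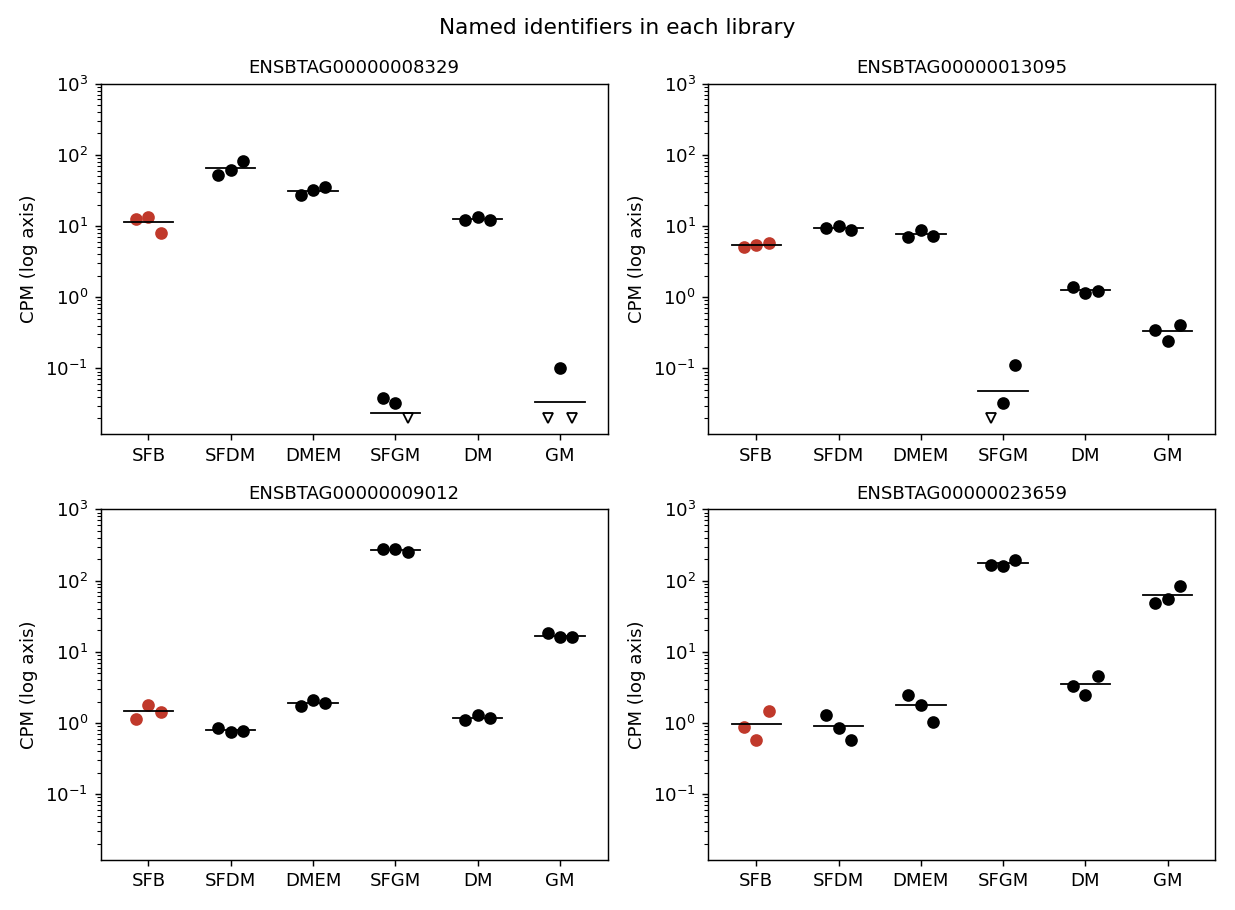
Each panel shows 1 named identifier, with CPM per library on a log axis for the 6 groups. Points are libraries A, B and C from left to right (SFB in red), horizontal lines are group means, and open triangles at the bottom mark libraries with 0 counts. The upper identifiers are near 0 in SFGM and above 5 CPM on average in SFB, and the lower ones are above 100 CPM in SFGM and below 2 CPM in SFB.

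Few genes passed between near absence and a substantial level. Averages of 10 CPM or more in SFB and under 1 CPM in SFGM were met by 14 identifiers, with 10.6 to 51.0 CPM in SFB (median 17.7) and 0.0240 to 0.863 CPM in SFGM (median 0.592). They were chosen on these values, which are a description. Of the 14, 12 reached 10 CPM in SFDM, 10 in DMEM, 6 in DM and 0 in GM, and 13 rose in DM against GM, where 34.2% of all genes tested rose and 35.5% fell. Compared with SFDM, 5 were higher in SFB and 8 lower, where 19.9% of all genes tested were higher and 14.7% lower. Compared with DMEM, 5 were higher and 9 lower, where 20.0% of all genes tested were higher and 20.7% lower. In the opposite direction, 6 identifiers had a mean below 1 CPM in SFB (0.469 to 0.980) and at least 10 CPM in SFGM (10.1 to 175). Of those 6, 4 fell in DM against GM and 1 rose.

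The SFB response was next described by how genes behave when serum-grown cells differentiate. The DM and GM libraries share none with SFB and SFGM, and between them serum level and the 72 h in culture cannot be told apart. Same-letter deviations across genes correlated between SFB and DM (0.166, 0.377 and 0.558 for A, B and C). Between SFB and GM the values were 0.217, 0.147 and 0.438. The responses may therefore not be independent, and the reported fit has no term for the letter. Genes that moved further in DM also moved further in SFB, in the same direction, but by a smaller distance on the log2 scale (the medians of SFB were 0.319 to 0.470 of those of DM in all bins but the bin from 0 to 0.5, where the ratio was 0.508). In the 445 genes with a DM response of 4 or more, the median log2 fold change was 2.44 in SFB (quartiles 1.40 and 3.36) and 5.395 in DM, with 332 rises and 12 falls in SFB. In the 576 genes with a DM response of 2 to 3, the medians were 1.05 in SFB and 2.42 in DM, and 394 rose (68.4%) and 36 fell (6.25%). In the 349 genes with a DM response below -3, the medians were -1.19 in SFB and -3.73 in DM, with 283 falls (81.1%) and 14 rises (4.01%). In the 452 genes between -3 and -2 the medians were -0.84 in SFB and -2.40 in DM. Genes with no count in a whole group, set to their bound, moved the medians of the highest bin to 2.32 in SFB and 5.14 in DM. The bins were cut on the DM response, whose own error inflates its extremes. Across all 14637 genes the log2 fold changes of SFB and DM had Pearson's r = 0.634 and Spearman's rho = 0.613, where genes are not independent replicates.

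**Figure D4:**
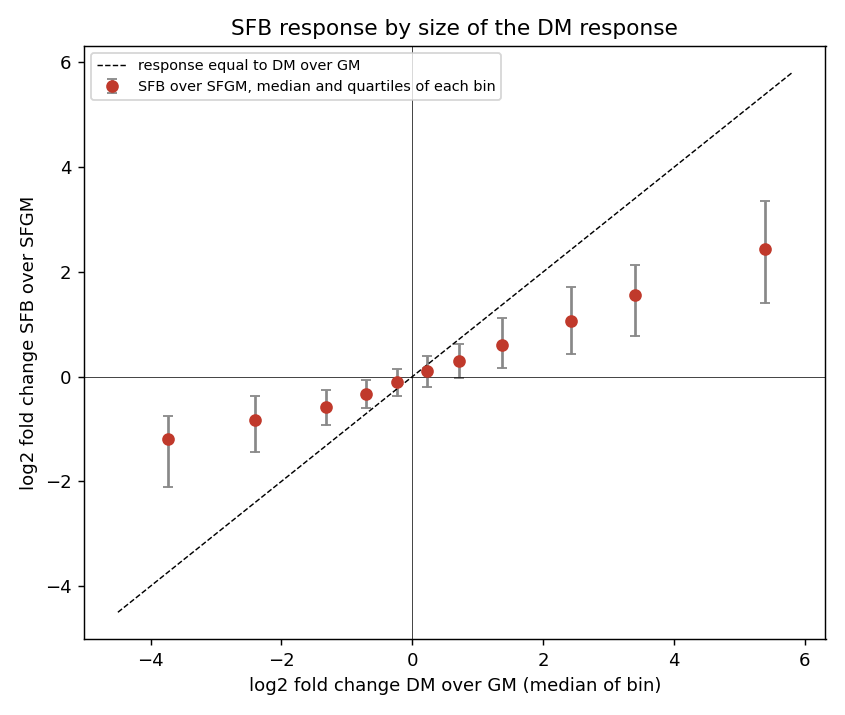
The x axis gives the median log2 fold change of DM over GM in each of 11 bins of genes and the y axis the log2 fold change of SFB over SFGM in the same genes. Points are medians, bars are the quartiles, and the dashed line marks equal responses. The points rise with the DM response from -1.19 to 2.44 and lie nearer to 0 than the dashed line in every bin.

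Genes 2-fold or more higher in DM than in GM numbered 2653 and mostly rose in SFB too. Of these, 1723 (64.9%) rose in SFB against SFGM and 161 (6.07%) fell, where 28.5% of all genes tested rose and 29.8% fell. Their median log2 fold change was 0.91, against -0.02 over all genes tested. They took 19.4%, 18.7% and 17.6% of the counts in SFB replicates A, B and C, against 8.69%, 8.63% and 8.67% in SFGM replicates A, B and C. The groups did not overlap, and SFB replicate C was the lowest SFB library. The mean share was 18.6% ± 0.899 in SFB and 8.66% ± 0.0287 in SFGM (SD, n = 3 each, exact permutation p = 0.1). It was also below the 27.4% ± 0.173 in SFDM and the 21.1% ± 0.105 in DMEM (exact permutation p = 0.1 each). GM, used to choose these genes, held 6.54% ± 0.0399, below the SFGM share.

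The 2167 genes at least 2-fold lower in DM than GM fell in SFB in 1513 cases (69.8%) and rose in 130, with a median of -0.71. Their share of the counts was 16.1%, 16.7% and 17.6% in SFB replicates A, B and C, against 20.6%, 20.5% and 20.9% in SFGM replicates A, B and C. All SFB libraries were below all SFGM libraries. The means were 16.8% ± 0.758 in SFB and 20.7% ± 0.209 in SFGM (exact permutation p = 0.1). GM, used to choose these genes, held 23.5% ± 0.0968, above the SFGM share. Of the 4438 genes that did not pass the test in DM against GM, 891 rose in SFB (20.1%) and 924 fell (20.8%).

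**Figure D5:**
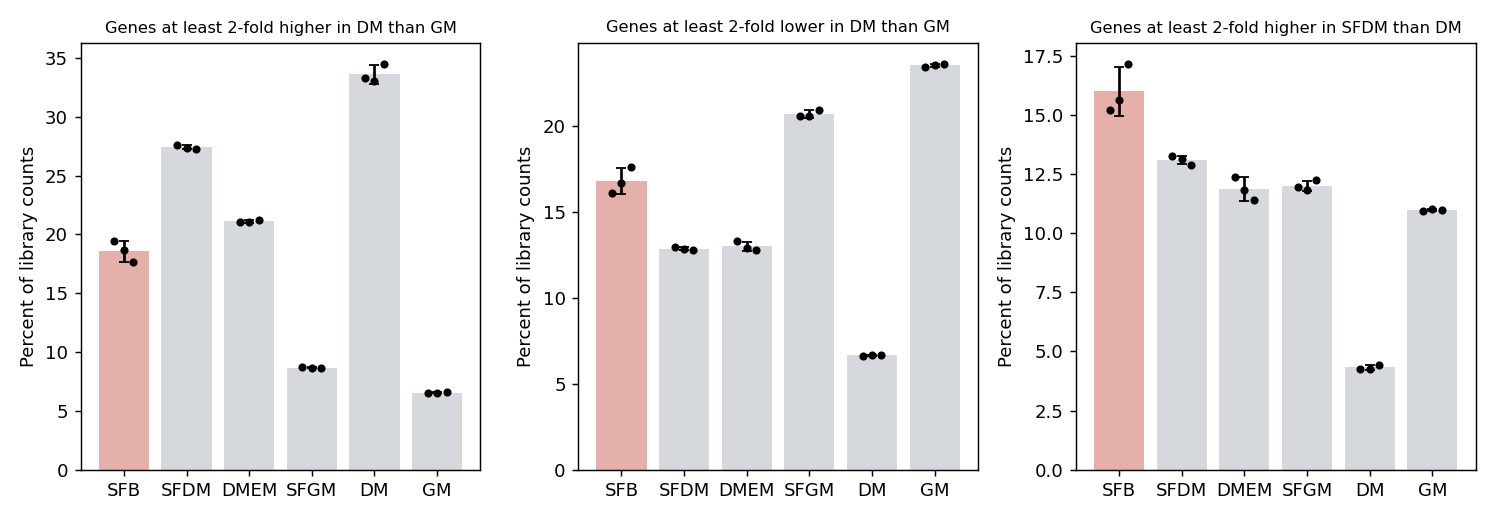
Bars show the mean percent of library counts held by 3 groups of genes in the 6 media, with SD as error bars and 1 point per library (A, B and C from left to right). SFB (shaded red) lies between SFGM and the other serum-free 72 h groups for the genes higher or lower in DM than GM. For the genes at least 2-fold higher in SFDM than DM, SFB is the highest of the 6 groups, at 16.01%.

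Over all genes tested, 28.5% rose and 29.8% fell in SFB, and 34.2% rose and 35.5% fell in DM. Genes that rose in both responses numbered 2861, which was 68.6% of the 4171 rises in SFB and 57.2% of the 4999 in DM. Those that fell in both numbered 3018, which was 69.2% of the 4359 falls in SFB and 58.0% of the 5200 in DM. Of these 2861 and 3018 genes, 1433 and 1583 showed no difference in size that passed the test. Many genes did respond differently. The difference between the responses (SFB over SFGM against DM over GM) passed its own edgeR test in 6929 genes, 47.3% of those tested, being higher for SFB in 3539 (24.2%) and lower in 3390 (23.2%). The cells of SFB and DM also started from different media, SFGM and GM, and a difference in response includes that difference in start. Among the 6929 genes whose difference passed, the most frequent pattern was a shared direction with a smaller size in SFB. Of the genes with a higher response in SFB, 1275 fell in both, with medians of -0.61 in SFB and -1.49 in DM. Of the genes with a lower response in SFB, 1206 rose in both, with medians of 0.94 in SFB and 2.14 in DM. A further 1096 fell and 1087 rose in DM without passing the test in SFB. A larger change in SFB was less common, with 222 genes that rose in both (medians 1.38 in SFB and 0.63 in DM) and 160 that fell in both (medians -1.33 and -0.57).

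A group of 911 genes rose in SFB without rising in DM, with the difference itself passing the test. Of these, 419 fell in DM and 492 did not pass there. Their median log2 fold change was 0.53 in SFB and -0.24 in DM. They held 18.5% ± 0.878 of the counts in SFB and 12.3% ± 0.189 in SFGM, and 7.63% ± 0.0621 in DM and 11.97% ± 0.0520 in GM (SD, n = 3). In SFDM they held 14.7% and in DMEM 14.8%. The genes were chosen on these responses, so the shares are a description. A rise of at least 2-fold was seen in 217 of them, with a median of 1.65 in SFB and -0.43 in DM. In the opposite direction, 891 genes fell in SFB without falling in DM, of which 417 rose in DM. They held 4.54% ± 0.259 of the counts in SFB and 7.42% ± 0.0558 in SFGM. In SFDM they held 4.68%, near the SFB share, and in DMEM 6.79%. In DM they held 7.10% ± 0.158 and in GM 5.47% ± 0.178. A fall of at least 2-fold was seen in 243 of these, with a median of -1.42 in SFB and 0.48 in DM.

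Genes that separate the DMEM/F-12 and DMEM versions of the differentiation medium were described next. Over all genes tested 28.5% rose in SFB and 29.8% fell. These groups were set by DMEM against SFDM (adjusted p under 0.05 and at least 2-fold), with no SFB or SFGM library in the contrast. Of the 908 genes lower in DMEM than SFDM, 445 (49.0%) rose in SFB against SFGM and 270 (29.7%) fell, with a median of 0.56 and quartiles of -0.69 and 2.05. Within that wide range, the 443 of them that DM raised 2-fold or more over GM had 349 rises, 17 falls and a median of 1.82, and the 289 that were at least 2-fold lower had 27 rises, 219 falls and a median of -0.85. Of the 938 genes higher in DMEM than SFDM, 283 (30.2%) rose in SFB and 334 (35.6%) fell, with a median of -0.0029. Split by DM response, they had 175 rises, 59 falls and a median of 0.70 in the 344 higher in DM, and 6 rises, 100 falls and a median of -1.32 in the 129 lower in DM. In shares of the library, the genes lower in DMEM than SFDM held 7.80% ± 0.196 in SFB and 4.24% ± 0.0841 in SFGM, and the genes higher in DMEM held 3.13% ± 0.105 in SFB and 4.15% ± 0.0402 in SFGM (exact permutation p = 0.1 each). SFDM libraries stood at 13.2% ± 0.335 and 2.36% ± 0.0140 for these groups, and DMEM libraries at 5.53% ± 0.154 and 7.31% ± 0.0708.

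Genes that separate the serum-free and serum-based end points SFDM and DM were split by direction. Those higher in SFDM than DM held their highest share of the counts in SFB, though their median level was higher in SFDM. Of the 1121 genes at least 2-fold higher in SFDM than DM, 460 (41.0%) rose in SFB against SFGM and 403 (36.0%) fell, both above the 28.5% and 29.8% of all genes tested. Set against SFDM, 292 were higher in SFB and 308 lower, with a median of -0.04. Their median log2 CPM relative to SFGM was 0.10, 0.12 and 0.17 in SFB replicates A, B and C, and 0.30, 0.33 and 0.33 in SFDM replicates A, B and C. Their share of the counts was 15.2%, 15.6% and 17.2% in SFB replicates A, B and C, against 11.96%, 11.8% and 12.2% in SFGM replicates A, B and C. SFB libraries were above all SFGM libraries and above every library of the other groups. The other means were 13.1% ± 0.181 in SFDM, 11.9% ± 0.498 in DMEM, 4.32% ± 0.0877 in DM and 10.98% ± 0.0455 in GM. The exact permutation p was 0.1 for SFB against each of SFGM, DMEM and GM. SFDM and DM libraries chose these genes, so the levels and shares of SFB against those groups are a description. Replicate C was the highest SFB library, and without it the remaining SFB values of 15.2% and 15.6% still exceeded those of every other group. The 963 genes at least 2-fold lower in SFDM than DM held 2.40% ± 0.0666 in SFB and 2.84% ± 0.000813 in SFGM, with 321 rises (33.3%) and 262 falls (27.2%), near the 28.5% and 29.8% over all genes tested.

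At the same 72 h, SFB differed from SFDM in fewer genes than from SFGM. Against SFDM, 2909 genes were higher in SFB (19.9%) and 2153 lower (14.7%), together 5062 or 34.6%. Large differences were mostly genes lower in SFB, with 325 higher and 675 lower at 2-fold or more, and 54 higher and 216 lower at 4-fold or more. At any size the balance was not stable. Higher genes made up 57.5% of the calls with TMM and 48.0% with RLE, and a fit of only the SFB and SFDM libraries gave 1617 higher and 1817 lower, 3434 in all. At 4-fold or more, genes lower in SFB were more numerous in all alternative settings (151 to 274, against 30 to 76 higher). In the 445 genes with a DM response of 4 or more, 307 were lower in SFB than in SFDM and 15 higher, with a median log2 difference of -1.46. In the 349 genes with a DM response below -3, 162 were higher in SFB and 21 lower, with a median of 0.50. Over the whole DM-induced group of 2653 genes, 314 were higher in SFB than in SFDM and 1060 lower, and over the 2167 DM-repressed genes 782 were higher and 95 lower. The medians were -0.31 for the induced and 0.27 for the repressed genes, against 0.04 over all genes tested. Genes with intermediate DM responses sat nearer to SFDM, with medians of -0.75 at a DM response of 3 to 4 and -0.39 at 2 to 3. Without SFB replicate C 6108 genes differed from SFDM.

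Against DMEM, 2931 genes were higher in SFB (20.0%) and 3027 lower (20.7%), together 5958 or 40.7%, and 705 and 908 of these were at least 2-fold. In the 445 genes with the highest DM response the median log2 difference was -0.83, a smaller gap than the -1.46 to SFDM. In the 349 most repressed genes it was 1.53, a wider gap than the 0.50 to SFDM. Of the DM-induced genes 394 were higher in SFB than in DMEM and 1017 lower, and of the DM-repressed genes 914 were higher and 248 lower. The difference between the gaps to DMEM and to SFDM was not tested, and both use the SFB libraries. With only the SFB and DMEM libraries in the fit, 3950 genes passed.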

How the data were processed

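Poly(A) RNA of bovine satellite cells was sequenced in 18 libraries with a stranded kit and 75 bp reads, per the labels' protocols. The authors deposited counts, whole numbers of reads per Ensembl identifier and not normalized. STAR 2.7, featureCounts and bosTau9 are named in the submitters' processing notes. Which annotation release and strand setting were used is not given in the sources used here, so overlapping, antisense and near-identical genes may share reads. Columns were matched to samples by label.

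Tests used edgeR 4.0.16 in R 4.3.3: filterByExpr by group (count at least 10, total at least 15), TMM scaling and a robust quasi-likelihood fit with a mean per group over all 18 libraries, which share an estimate of the spread. Contrasts were two-sided, with Benjamini-Hochberg adjustment over 14637 genes at 0.05. CPM uses TMM-scaled totals, and library distances use log2 CPM with a prior count of 2. The script was tested on simulated data. Replicate counts differed beyond sampling noise (chi-square per degree of freedom 2.22 to 41.9 within SFB and SFGM). With 3 libraries a group, exact permutation p-values cannot go below 0.1.

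Gene names were not found for any identifier in the reference table, so symbol lists and marker genes were not used. The rule for named identifiers was the largest fitted rises and falls, 2 each, with adjusted p under 0.05, a higher group averaging 5 CPM or more and libraries that do not overlap, which 3084 rises and 3670 falls met. Genes at 0 counts in a group were set to a floor of 3 counts over the group where stated. The comparisons, gene groups and limits were chosen with earlier results of these data known. Alternatives were RLE scaling, library totals alone, other expression filters, DESeq2 1.42.0, fits of only the compared groups, a block for the replicate letter, and omission of single libraries.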

Additional observations from a re-analysis of the deposited data

Results flagged for a closer look

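The difference between the SFB response (SFB over SFGM) and the DM response (DM over GM) was tested as such, and it passed in 6929 genes. Of the 4 named identifiers, 3 passed it. ENSBTAG00000013095 rose further in SFB than in DM (edgeR adjusted p = 1.1e-06), with fitted log2 fold changes of 6.66 and 1.91. ENSBTAG00000009012 fell further in SFB (edgeR adjusted p = 7.84e-11), with -7.52 in SFB and -3.83 in DM. Its levels at 72 h were 1.46 ± 0.331 CPM in SFB and 1.18 ± 0.102 CPM in DM, while the starting levels were 269 ± 13.9 CPM in SFGM and 16.8 ± 1.15 CPM in GM (SD, n = 3). ENSBTAG00000023659 also fell further in SFB (edgeR adjusted p = 1.09e-05), with -7.46 in SFB and -4.15 in DM, from 175 ± 19.9 CPM in SFGM and 62.2 ± 19.3 CPM in GM. ENSBTAG00000008329 did not pass (edgeR adjusted p = 0.885). The 4 identifiers were chosen for the size of their SFB response, which also enters this difference.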

How the results depend on the processing

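The count of 8530 genes for SFB against SFGM lay between 7884 and 8988 over the alternative settings and between 7660 and 8898 when a library was left out. The response difference lay between 6575 and 8712, and between 6266 and 7596. The 4 named identifiers kept their direction against SFGM and their call in all settings run (highest adjusted p 4.26e-06). With only the compared groups in the fit, 3434 genes passed against SFDM (5062 as reported) and 3950 against DMEM (5958 as reported). With the replicate letter as a block in that fit, 1318 (475 higher and 843 lower) and 1682 (781 and 901) passed. By the rule of all 3 correlations (A, B and C) above 0.1, same-letter deviations across genes did not pair SFB with SFGM (0.0934, 0.186 and 0.336), SFDM (-0.193, -0.0947 and -0.450) or DMEM (-0.381, -0.0219 and -0.590). They did pair DM with GM (0.131, 0.184 and 0.426), SFB with DM (0.166, 0.377 and 0.558) and SFB with GM (0.217, 0.147 and 0.438). All 3 correlations of SFB with SFGM were positive, and only that of A lay below 0.1. A block in only DM and GM, chosen after seeing the data, gave 2536 genes at least 2-fold higher and 2012 lower (2653 and 2167 as reported). The DMEM difference of ENSBTAG00000013095 did not pass under the block with only the compared groups (edgeR adjusted p = 0.146). With the block and only SFB and SFGM, 8988 genes passed. Leaving out a library gave 3912 to 6108 genes against SFDM and 4937 to 6586 against DMEM. The median of genes higher in SFDM than DM was 0.16 and turned to -0.0103 with the stricter filter, which tests fewer genes, so no direction is read from it. Genes with few counts limit the folds: the median standard error was 0.462 below 1 CPM and 0.0808 at 100 CPM or more.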
